A study of Mus musculus with 6 samples.

Results

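Keratins are the intermediate filament proteins of epithelial cells, and the keratin family was taken here as every listed mouse gene whose symbol is Krt followed by a number and at most 1 letter. This gave 37 of the 22287 genes listed, 18 of type I and 19 of type II. RNA was sequenced from the root-forming, apical end of the first mandibular molar of C57BL/6 pups at postnatal day 7.5, all of which had received tamoxifen at postnatal day 3.5. The mutants were Gli1-CreER;Arid1a fl/fl (3 libraries, replicates 3, 4 and 5), in which an inducible Cre recombinase is expressed from Gli1 in Hedgehog-responsive cells. The controls were Arid1a fl/fl (3 libraries, replicates 2, 3 and 5), which carry the same loxP-flanked alleles and no Cre. Effects of CreER itself, which no control carried, cannot be told apart from effects of losing Arid1a, a gene for a subunit of a chromatin remodelling complex. The labels do not say whether a library is 1 pup or a pool, and the p-values therefore measure spread between libraries, which may be technical.

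A keratin filament needs an acidic type I and a basic type II keratin, which pair with each other, and each kind of epithelium makes its own pairs. Basal cells of stratified epithelia make Krt5 and Krt14, the upper layers of soft mucosa make Krt4 and Krt13, cornifying layers make Krt1 and Krt10, and simple epithelia make Krt8 and Krt18. In a tooth, the enamel organ and the epithelial root sheath are the epithelial parts, while the pulp, the odontoblasts and the follicle come from mesenchyme and neural crest. The oral mucosa overlies the erupting crown. The libraries are whole-tissue RNA, so for every keratin, fewer epithelial cells and less RNA per cell cannot be told apart.

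Depth was 20453247 to 24255352 estimated counts per library. Levels are CPM, gene counts divided by the scaled library size, and values in the 3 mutant libraries are given in the order of replicates 3, 4 and 5, before those in the 3 control libraries in the order 2, 3 and 5. Arid1a fell to 120, 134 and 130 CPM in the mutants, against 210, 202 and 204 CPM in the controls (log2 fold change -0.68, SE 0.07, edgeR quasi-likelihood adjusted p = 0.0129). That adjusted p was 0.0506 without control replicate 2 and 0.0529 without control replicate 3. Of the 17305 genes tested, 1.86% were called at an adjusted p under 0.05. The enamel and dentine of the labelled tissue were well represented: the summed level of 15 ameloblast genes was 77475 to 123212 CPM in the mutants and 190132 to 288059 CPM in the controls, and that of 11 odontoblast genes was 57651 to 68471 CPM in the mutants and 64056 to 67405 CPM in the controls. The odontoblast sums are carried mostly by the collagen genes Col1a1 and Col1a2, and Dspp is in both lists. The ameloblast sums did not overlap between the groups, but they are carried by a few enamel matrix genes. Of the 15 ameloblast genes, 6 had positive changes. Marker sums of erythroid cells (2367 to 5515 CPM in the mutants, 1424 to 1950 CPM in the controls), macrophages (492 to 657 CPM in the mutants, 357 to 482 CPM in the controls) and endothelium (332 to 346 CPM in the mutants, 279 to 326 CPM in the controls) did not overlap either, and were higher in the mutants. The endothelial ranges lay close together, and the sums of 8 Schwann cell genes overlapped (111 to 125 CPM in the mutants, 122 to 131 CPM in the controls). The part of differences in cell types in the keratin values was not tested.

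On mm10, 17 of the 18 type I genes lay in a cluster on chromosome 11 between 99232761 and 100269871. All 19 type II genes lay on chromosome 15 between 101347444 and 102004482, with the type I gene Krt18 beside them at 102028180 to 102032027. Of the 37 genes, 25 have a promoter entry in RefSeq (GRCm38.p6), each covering 250 bases before to 50 after the start. The sequence TATAAA, on either strand and at any place in the window, was present in 12 of these 25 (48.0%), against 13.6% of all 32851 promoter entries. The AP-1 motif TGANTCA (either strand) was present in 1 of the 25 (4.0%), against 7.81% of all entries. The 3 promoters below belong to the keratin with the highest level, to the mucosal keratin whose level varied most among those with an entry, and to the mucosal keratin that was highest in the mutants. Each is on the minus strand and is printed in the direction of transcription. The Krt5 promoter (chr15:101712856-101713155) holds neither motif. Krt13 has a pair of entries. The one at its annotated start (chr11:100121517-100121816) is shown and holds TGAATCA, in capitals, 196 bases before the start, and the other holds TGACTCA at 183 and at 34 bases before its own start. The Krt76 promoter (chr15:101892871-101893170) holds TATAAA, in capitals, 29 bases before the start.
Krt5: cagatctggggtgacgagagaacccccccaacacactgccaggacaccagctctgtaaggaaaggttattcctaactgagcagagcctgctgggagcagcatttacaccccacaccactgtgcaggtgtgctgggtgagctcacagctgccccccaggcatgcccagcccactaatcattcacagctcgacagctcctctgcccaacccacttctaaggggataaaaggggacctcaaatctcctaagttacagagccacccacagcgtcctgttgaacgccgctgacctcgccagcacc
Krt13: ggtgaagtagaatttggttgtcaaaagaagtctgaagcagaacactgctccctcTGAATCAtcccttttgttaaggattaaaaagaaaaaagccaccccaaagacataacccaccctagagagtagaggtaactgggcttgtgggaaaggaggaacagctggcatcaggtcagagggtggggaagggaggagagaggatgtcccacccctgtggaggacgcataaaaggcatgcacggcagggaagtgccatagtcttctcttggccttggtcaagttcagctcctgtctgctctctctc
Krt76: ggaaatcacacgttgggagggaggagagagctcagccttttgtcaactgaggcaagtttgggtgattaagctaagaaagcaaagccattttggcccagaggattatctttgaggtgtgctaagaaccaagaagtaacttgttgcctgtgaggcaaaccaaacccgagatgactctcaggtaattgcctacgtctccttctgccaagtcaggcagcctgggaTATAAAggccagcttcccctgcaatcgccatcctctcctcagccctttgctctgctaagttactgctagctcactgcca

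Of the 37 keratins, 23 had enough counts in enough libraries to be tested and 14 did not. Of those tested, 1 was called higher in the mutants (Krt87) and 0 lower, against 0.659% and 1.20% of all tested genes. By unadjusted p under 0.05 there were 3 with a positive and 5 with a negative change, which is 8 of the 23, against 15% of all genes in either direction. The negative ones included Krt4 and Krt13, whose direction turned without control replicate 5. The positive ones included Krt87, which passed the filter on low counts through the mutants, where it is high. DESeq2 called 1 higher and 2 lower (Krt17 with adjusted p = 0.0182 and Krt80 with adjusted p = 0.0169), and limma-voom called 0 and 0. Mutant and control libraries did not overlap for 5 tested keratins, 2 higher (Krt76 and Krt87) and 3 lower (Krt17, Krt80 and Krt15) in the mutants, against 21.3% of all tested genes. Over the tested keratins the log2 fold change had a median of -0.10, and over all tested genes 0.01. The 13 tested type II genes had 7 positive and 6 negative changes, and the 10 tested type I genes had 2 positive and 8 negative.

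The basal keratins made up most of the family's RNA, and none of them passed the test between the groups. Krt5, the type II keratin of basal cells, stood at 1198, 976 and 690 CPM in the mutants, against 969, 1165 and 1235 CPM in the controls (log2 fold change -0.23, SE 0.20, adjusted p = 0.645). Krt14, its type I partner, stood at 972, 744 and 512 CPM in the mutants, against 628, 809 and 744 CPM in the controls (log2 fold change 0.03, SE 0.22, adjusted p = 0.968). For both genes the groups overlapped, mutant replicate 5 was the lowest library, and the mutants spread more widely than the controls. The direction for Krt14 turned with limma-voom, with a block on the replicate number and without mutant replicate 3 or control replicate 2.

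Per kilobase of exon, Krt5 averaged 473 CPM, Krt14 418 CPM and Krt17 155 CPM over the 6 libraries. Krt13 (29.4 CPM per kilobase), Krt4 (28.2), Krt6a (13.3) and Krt15 (11.6) came next, the first 2 almost wholly through control replicate 5. Together Krt5, Krt14 and Krt17 made up 94.2%, 95.2% and 92.6% of the keratin level per kilobase in the mutants and 95.4%, 95.1% and 74.6% in the controls. The lower share in control replicate 5 went with its mucosal keratins, described below. The ratio of Krt5 to Krt14 per kilobase was 0.987, 1.05 and 1.08 in the mutants, against 1.23, 1.15 and 1.33 in the controls. These ratios did not overlap, but the comparison was added after the values were seen. The exact two-sided permutation test gave p = 0.1, the smallest that 3 libraries against 3 allow, and 0.4 after adjustment over the 4 values tested this way. All type II keratins over all type I keratins, per kilobase, came to 0.838, 0.792 and 0.787 in the mutants and 0.853, 0.823 and 0.909 in the controls (exact p = 0.2, adjusted 0.4).

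Krt15, a type I keratin of basal cells and of hair follicle stem cells, was 15.8, 9.67 and 7.73 CPM in the mutants, against 16.1, 26.6 and 47.2 CPM in the controls. Every mutant value was under every control value, narrowly so between mutant replicate 3 and control replicate 2. The log2 fold change of -1.43 (SE 0.40) did not pass the test (adjusted p = 0.135), and it was -0.94 without control replicate 5. The 3 basal genes summed to 2185, 1729 and 1209 CPM in the mutants and 1613, 2001 and 2026 CPM in the controls.

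The keratins made in wounded or fast-dividing epithelium were led by Krt17. Krt17, a type I keratin, stood at 196, 232 and 179 CPM in the mutants, against 243, 280 and 314 CPM in the controls (log2 fold change -0.46, SE 0.13, adjusted p = 0.127). All 3 mutant libraries lay under all 3 control libraries, and of the 3 most abundant keratins this one varied least among the mutants. Krt6a, a type II partner of Krt16 and Krt17, was 64.4, 27.7 and 19.9 CPM in the mutants, against 13.9, 28.4 and 39.3 CPM in the controls (log2 fold change 0.46, SE 0.48, adjusted p = 0.725). Its groups overlapped throughout, and its direction turned without mutant replicate 3. Krt6b, its near copy, was 8.52, 4.57 and 2.10 CPM in the mutants, against 1.59, 2.95 and 0.699 CPM in the controls (log2 fold change 1.52, SE 0.59, adjusted p = 0.273).

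The split between Krt6a and Krt6b is uncertain, since 51.1% of the 75-base stretches of Krt6a and 39.6% of those of Krt6b occur in another gene as well, mostly in each other. Their sum does not depend on that split, and it was 73.0, 32.3 and 22.0 CPM in the mutants and 15.5, 31.4 and 40.0 CPM in the controls (exact permutation p = 0.5). Krt16, the type I partner, was at or under 1.14 CPM in each library and was not tested.

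The mucosal keratins showed the widest range of the family, and 1 control library set it. Krt4, the type II keratin of soft mucosa, was 3.71, 1.34 and 9.18 CPM in the mutants, against 1.41, 3.28 and 342 CPM in the controls. Its type I partner Krt13 was 3.86, 2.17 and 11.3 CPM in the mutants, against 1.56, 2.95 and 299 CPM in the controls. For both genes control replicate 5 was far above the other 5 libraries, which all stayed under 12 CPM, and mutant replicate 5 was the highest of those 5. The fold changes followed that library: Krt4 had -4.61 (SE 1.84, adjusted p = 0.287) with all libraries and 1.02 (adjusted p = 0.660) without it. For Krt13 they were -4.13 (SE 1.76, adjusted p = 0.325) and 1.36 (adjusted p = 0.511). The ratio of Krt4 to Krt13 per kilobase was 0.820, 0.529 and 0.692 in the mutants and 0.774, 0.949 and 0.976 in the controls, within 2-fold of each other in every library.

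Krt76, a type II keratin of the palate and gingiva in mice, was highest in the mutants. It was 10.6, 11.6 and 8.82 CPM in the mutants, against 5.25, 2.95 and 0.515 CPM in the controls. Every mutant library was above every control library, and control replicate 5, highest for Krt4 and Krt13, was the lowest of all. The log2 fold change was 1.82 (SE 0.56, adjusted p = 0.167) with all libraries and 1.35 (adjusted p = 0.114) without control replicate 5. Without that library Krt4, Krt13 and Krt76 all had positive changes. The 3 mucosal genes together were 18.2, 15.1 and 29.3 CPM in the mutants and 8.22, 9.18 and 641 CPM in the controls. They made up 20.4% of keratin CPM in control replicate 5.

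**Figure D1:**
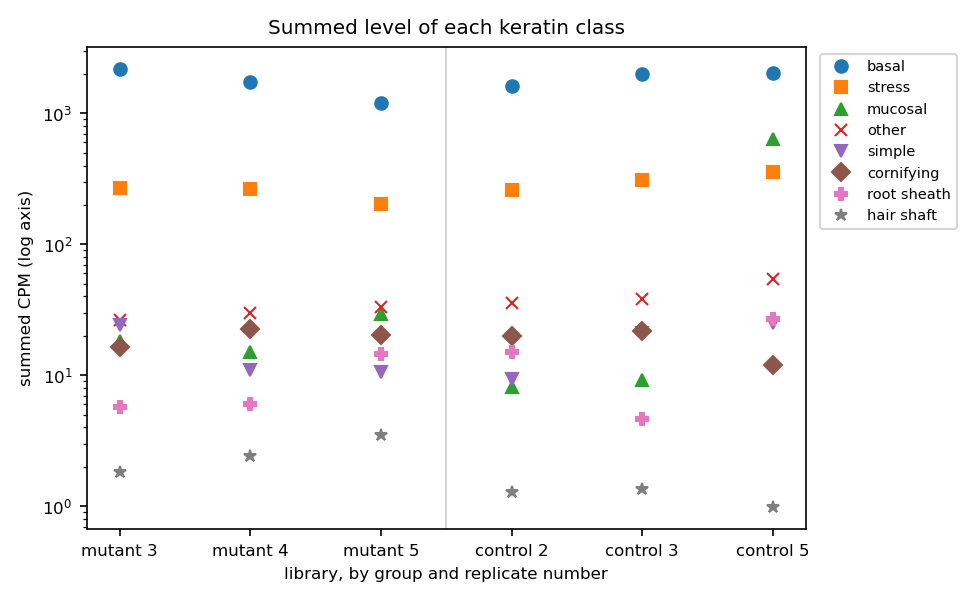
Summed CPM of the keratins of each class (log axis) in each library, mutants left of controls. The basal class leads in each library (1209 to 2185 CPM in the mutants, 1613 to 2026 CPM in the controls), and the mucosal class reaches 641 CPM in control replicate 5 and at most 29.3 CPM elsewhere.

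Control replicate 5 stood apart for other genes as well. In it 11 genes were at least 10-fold above each of the other 5 libraries, and for each other library the number of such genes was 0. Krt4 was 37.2-fold above the next library and Krt13 26.4-fold. The same set held Sprr3, a small proline-rich protein of the cornified envelope (21.7-fold), the envelope cross-linking enzyme Tgm3 (19.2-fold) and Ly6d (10.6-fold), and the others were Idi2 (47.5-fold), Serpinb3a (31.3-fold), Ada (21.2-fold), Calml3 (15.8-fold), Cyp2f2 (14.5-fold) and Serpinb12 (11.7-fold). All were named after their values were seen. The 24 listed genes of the cornified envelope summed to 177 to 216 CPM in the mutants and 168 to 445 CPM in the controls. Of these, 20 were highest in this library, which was the highest for 21.1% of all tested genes. Some exceeded the next library narrowly, among them Dmkn (1.04-fold) and Tgm1 (1.10-fold), and Tchh was at its lowest there (31.6 CPM). Of 13 listed mucosal genes that are no keratins, 7 were highest in it, among them Sprr3 and Tgm1, which are on the envelope list as well. Mal was at its lowest there (1.12, 1.13 and 1.80 CPM in the mutants, 0.681, 0.655 and 0.490 CPM in the controls). None of the 15 tested genes of the cornified envelope list was called by edgeR or by DESeq2. At an unadjusted edgeR p under 0.05, 0 were higher and 2 lower, against 15% of all tested genes in either direction. The untested Krt23 and Krt78 had the same pattern at low counts: Krt23 had 5, 1 and 8 counts in the mutants and 4, 2 and 101 in the controls, and Krt78 had 7, 3 and 35 counts in the mutants and 8, 3 and 126 in the controls. Both passed 100 counts in control replicate 5 and no other library. Of 15 listed muscle genes 0 were highest in control replicate 5, and of 5 listed salivary gland genes 1 was. The muscle genes summed to 16.3 to 27.4 CPM in the mutants and 16.1 to 56.0 CPM in the controls. The salivary genes summed to 44.5 to 70.6 CPM in the mutants and 55.3 to 79.2 CPM in the controls. Nearly all of that sum was Prom2 (69.5, 43.0 and 55.3 CPM in the mutants, 53.6, 71.6 and 78.2 CPM in the controls), the salivary gene highest in control replicate 5. The listed Amy1, Aqp5, Muc19 and Dcdc2a stayed under 1 CPM in each library.

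**Figure D2:**
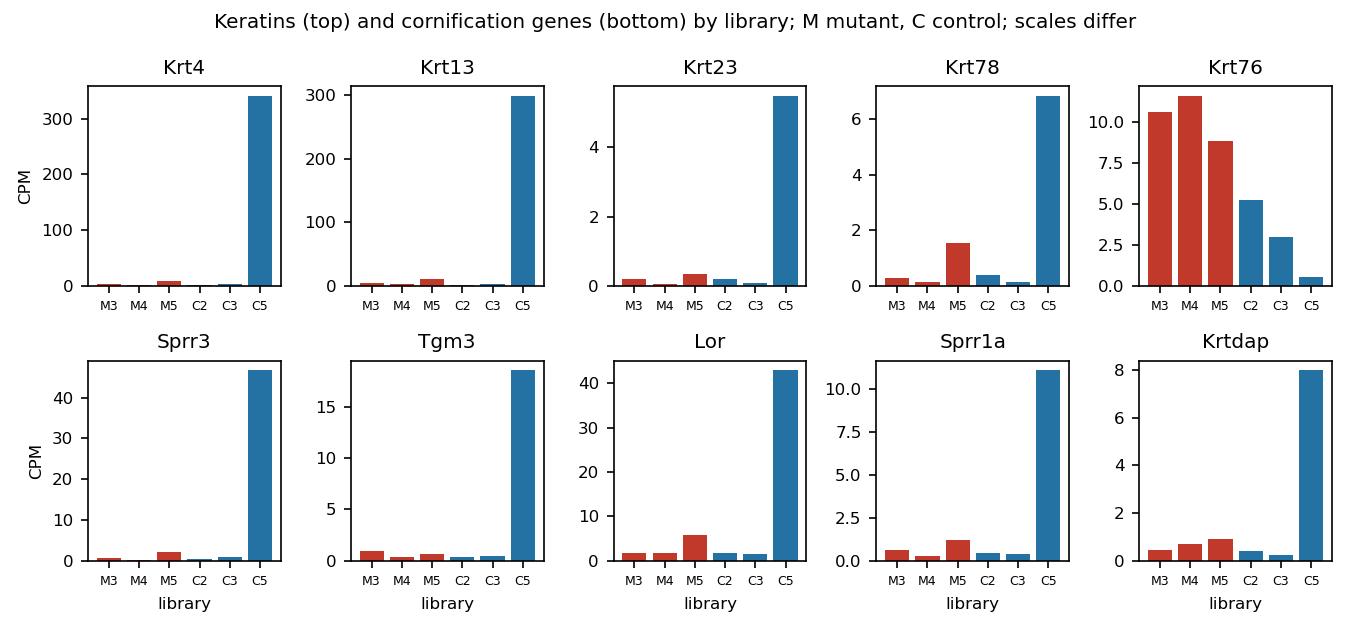
CPM in each library of 5 keratins (top) and 5 cornification genes (bottom), with mutants (M, red) left of controls (C, blue) and a separate scale in each panel. Control replicate 5 is the tallest bar in 9 panels, and for Krt76 it is the shortest at 0.515 CPM.

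The cornifying keratins were modest and nearly level. Krt10, the type I keratin of cornifying upper layers, was 15.4, 22.2 and 18.7 CPM in the mutants, against 19.0, 20.8 and 10.8 CPM in the controls (log2 fold change 0.15, SE 0.24, adjusted p = 0.834). Unlike the 20 envelope genes that peaked there, Krt10 was lowest in control replicate 5, and without that library its direction turned. Krt1, its type II partner, ran from 0.390 to 1.49 CPM in the mutants and 0.973 to 1.20 CPM in the controls. Per kilobase of exon it averaged 0.228 CPM, against 8.42 CPM for Krt10.

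Keratins of simple epithelia were present at low levels. Krt8 was 7.79, 5.30 and 4.08 CPM in the mutants, against 2.06, 4.51 and 3.65 CPM in the controls (log2 fold change 0.75, SE 0.33, adjusted p = 0.341), with overlap in mutant replicate 5. Its partner Krt18 was 3.79, 2.13 and 2.99 CPM in the mutants, against 2.82, 3.70 and 3.05 CPM in the controls. Krt7, a type II keratin of ducts and glands, was 9.58, 2.82 and 2.63 CPM in the mutants, against 3.84, 11.5 and 14.7 CPM in the controls (log2 fold change -0.98, SE 0.60, adjusted p = 0.506). The pair Krt8 and Krt18 did not move together, with a ratio per kilobase of 1.51, 1.83 and 1.0 in the mutants and 0.537, 0.894 and 0.880 in the controls. For Krt8, 23.5% of its 75-base stretches also occur elsewhere, mostly in the pseudogene Krt8-ps. Krt19 stayed between 0.486 and 3.37 CPM, and Krt20, a keratin of intestinal epithelium, had at most 8 counts in a library.

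Keratins of the hair follicle's root sheath and of the hair shaft were near the limit of detection, apart from Krt75. Krt75, a type II keratin of the companion layer, was 2.57, 3.21 and 11.7 CPM in the mutants, against 13.3, 1.90 and 23.9 CPM in the controls (log2 fold change -1.16, SE 0.83, adjusted p = 0.585). Its values split the libraries without regard to genotype, with control replicate 3 and mutant replicates 3 and 4 low. Krt71, Krt73 and Krt25 averaged under 1 CPM and did not pass the test, and Krt25 ran from 0.0829 to 0.613 CPM in the mutants and 0.517 to 1.85 CPM in the controls. Krt26, Krt27 and Krt28 were not tested. Among these, Krt27 had 9.85, 9.95 and 9.99 estimated counts in the mutants and 1.27, 1.09 and 1.04 in the controls, groups that did not overlap but that rest on about 10 reads a library and on stretches partly shared with Krt25.

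Krt87, a type II gene of the hair keratin group (chromosome 15), rose in the mutants and was the sole keratin called. It passed the filter on low counts through the mutants, where it is high, so the call and the ratio are no independent evidence about the family. It had 37.9, 37.8 and 17.3 estimated counts in the mutants, against 2.36, 5.52 and 1.11 in the controls. In CPM this was 1.46, 1.64 and 0.758 in the mutants and 0.115, 0.258 and 0.0604 in the controls. All mutant libraries were above all control libraries (log2 fold change 3.07, SE 0.57, adjusted p = 0.0449). Over the groups there were 93 counts in the mutants and 9 in the controls, a ratio of 8.69 after library scaling, with a 95% counting interval of 4.39 to 19.6. The call was lost without any single library (adjusted p 0.0585 to 0.141) and with limma-voom (adjusted p = 0.0533), while DESeq2 gave an adjusted p of 0.00175. Of its 75-base stretches, 22.4% occur in other genes, Gm49425 and other hair keratin genes among them, so a part of these counts may belong to those genes. The other hair keratins Krt36, Krt82, Krt83 and Krt84 were not tested and had at most 35 counts in a library.

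Of the remaining keratins, Krt80, a type II keratin of differentiating epithelial cells, was 13.3, 19.9 and 19.1 CPM in the mutants, against 23.9, 26.1 and 31.2 CPM in the controls (log2 fold change -0.63, SE 0.17, adjusted p = 0.120). The groups did not overlap. Krt222, a keratin-related gene, was the steadiest of the family at 8.08, 7.81 and 9.53 CPM in the mutants and 9.00, 9.32 and 8.27 CPM in the controls (log2 fold change -0.07, SE 0.13, adjusted p = 0.860). Krt42, a keratin that is a pseudogene in humans, ran from 1.43 to 1.84 CPM in the mutants and 1.52 to 2.09 CPM in the controls. Krt24 had 68, 8 and 8 counts in the mutants and 4, 6 and 2 in the controls, and Krt79 and Krt90 had at most 9 counts in a library.

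**Figure D3:**
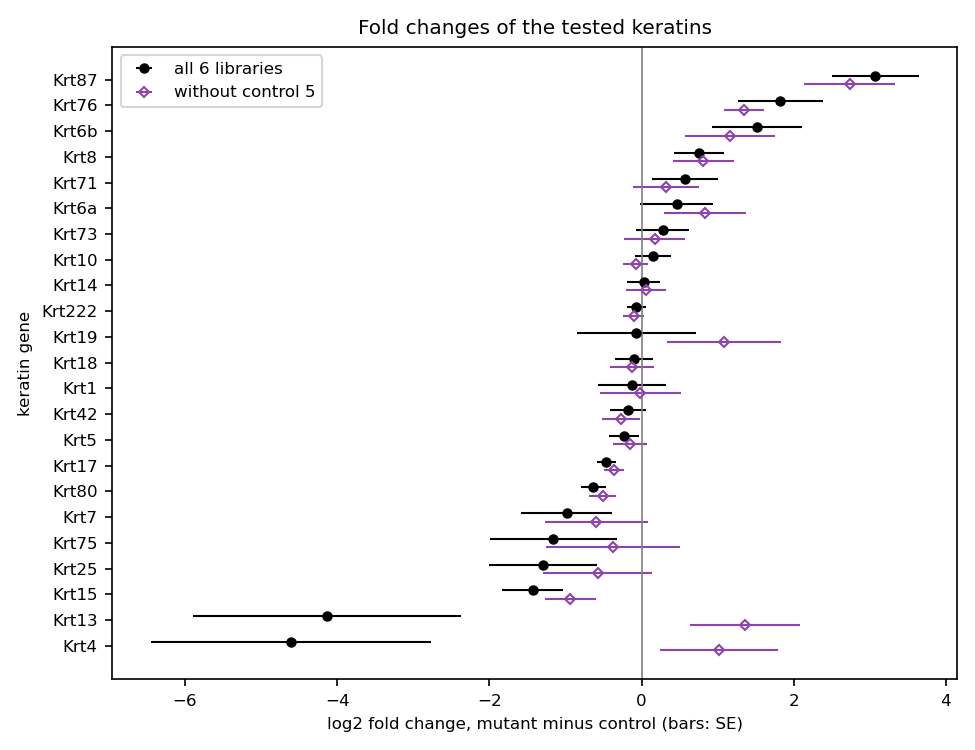
Log2 fold change of each tested keratin, mutant minus control, with its SE, from all 6 libraries (filled) and without control replicate 5 (open). Krt4 and Krt13 lie at -4.61 and -4.13 with all libraries and at 1.02 and 1.36 without that library, while Krt87 and Krt76 stay above 1.

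All 37 keratins together summed to 2547, 2081 and 1523 CPM in the mutants and 1961, 2408 and 3140 CPM in the controls. The mean difference of -0.29 on the log2 scale was within the spread between libraries (exact two-sided permutation p = 0.5). The 17 listed genes of dental epithelium summed to 2310 to 2509 CPM in the mutants and 2649 to 2965 CPM in the controls, without overlap. Of these, edgeR called 0 higher and 2 lower, against 0.659% and 1.20% of all tested genes, and DESeq2 called 1 and 3. The largest part of the sum was Alpl (967, 779 and 814 CPM in the mutants, 852, 875 and 863 CPM in the controls). Sp6 is on the ameloblast list as well. Libraries of the groups did not overlap for 3 of these genes higher and 5 lower in the mutants, against 21.3% of all tested genes. The part of the dental epithelium genes in the keratin values was not tested. Like the keratin sums, those of general epithelial genes overlapped between the groups. The 22 listed genes summed to 581 to 1089 CPM in the mutants and 750 to 1148 CPM in the controls. Of the 19 tested, edgeR called 0 higher and 0 lower, with 0 and 4 at an unadjusted p under 0.05, against 15% of all tested genes in either direction, while DESeq2 called 0 higher and 2 lower. When libraries were scaled by their totals alone, log2 fold changes had a median of 0.21 over all genes and 0.10 over the keratins, so the keratin median turned positive and stayed below that of all genes.

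The proteins that tie keratin filaments to desmosomes and to the basement membrane were also listed. Of 22 tested linker genes, 0 were called higher and 2 lower, against 0.659% and 1.20% of all tested genes. DESeq2 called 0 higher and 3 lower, and limma-voom 0 and 1. Their log2 fold changes were negative for 17, with a median of -0.21 against 0.01 over all genes. Col17a1, the hemidesmosome collagen, fell to 284, 264 and 193 CPM in the mutants, against 423, 465 and 539 CPM in the controls (log2 fold change -0.94, SE 0.16, adjusted p = 0.0345). Ppl, the plakin periplakin, fell to 11.9, 12.4 and 10.4 CPM in the mutants, against 21.3, 25.8 and 44.0 CPM in the controls (log2 fold change -1.39, SE 0.25, adjusted p = 0.0446). Neither gene's groups overlapped, while those of Krt5 and Krt14 did. The Ppl call was lost without any single library (adjusted p 0.0532 to 0.127) and with limma-voom (adjusted p = 0.0622), and the Col17a1 call without any but mutant replicate 3 (adjusted p 0.0561 to 0.123). Both calls, and that of Arid1a, were also lost with a block on the replicate number. That block compares only libraries whose number occurs in both groups, so fewer libraries may account for the loss. The desmosome gene Dsp, the main filament anchor at cell junctions, was 388, 363 and 252 CPM in the mutants and 302, 387 and 448 CPM in the controls (adjusted p = 0.732), and within each group its libraries ranked as they did for Krt5. It was named after its values were seen.

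Keratins varied more between libraries than most genes. The median biological coefficient of variation, a measure of spread beyond counting noise, was 0.339 over the 23 tested keratins and 0.135 over all tested genes. The median SD of log2(CPM + 0.5) was 0.431 in the mutants and 0.498 in the controls for keratins, against 0.143 and 0.144 for all genes. The highest library was over 4-fold above the lowest for 11 of the 23 keratins (47.8%), against 5.38% of all tested genes. Without control replicate 5 this was 9 keratins (39.1%) against 3.92%, and the control SD was 0.258 for keratins against 0.10 for all genes. Because genes of low level vary more as well, the keratins were also plotted against level.

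**Figure D4:**
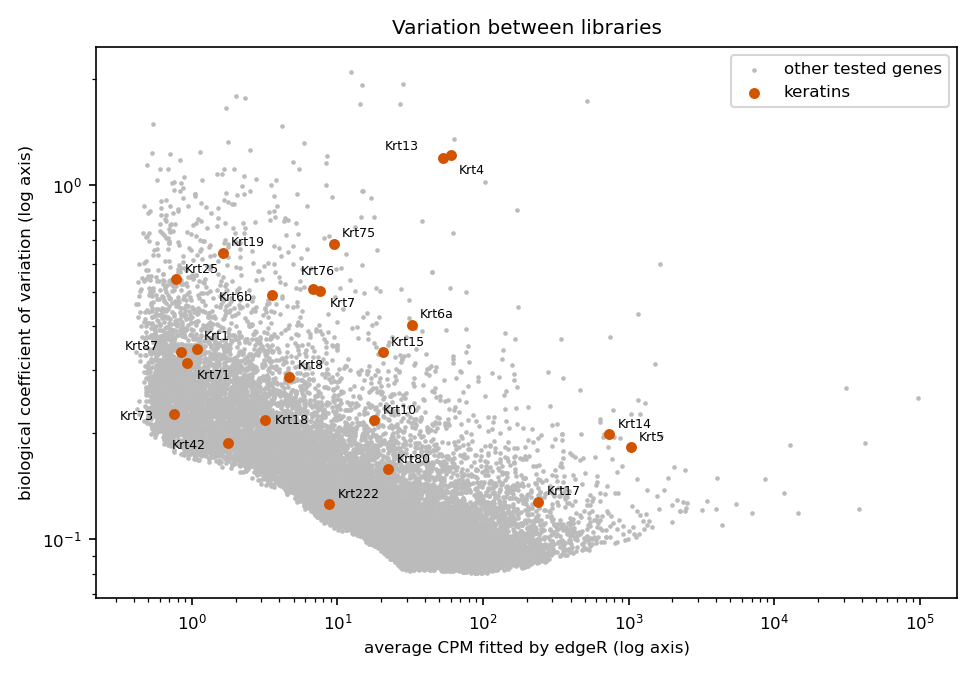
Biological coefficient of variation against average level for each tested gene (log axes), with keratins in orange. Krt4 and Krt13 lie among the most variable genes of their level, while Krt222 (0.126) and Krt17 (0.128) have the lowest values of the family.

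The range between libraries was 254-fold for Krt4, 192-fold for Krt13, 27.1-fold for Krt87, 22.6-fold for Krt76, 22.3-fold for Krt25, 12.6-fold for Krt75 and 12.2-fold for Krt6b. It was under 2-fold for the abundant Krt5 (1.79-fold), Krt14 (1.90-fold) and Krt17 (1.75-fold), for Krt42 (1.46-fold) and for Krt222 (1.22-fold). Control replicate 5 was the highest library for 10 of the 23 tested keratins and mutant replicate 3 for 7, while control replicate 3 was the highest for 0. Across all tested genes these libraries were the highest for 21.1%, 19.2% and 12.2%.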

How the data were processed

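The members and the gene lists were chosen with earlier results of these data known. Libraries were grouped by their genotype label. The authors deposited expected counts per gene, that is, estimated reads, of which 53.8% were whole within 0.001, for genes totalling at least 10. They also deposited a normalized signal for 18665 genes, used for 1 alternative and equal to the count plus 1 times a factor per library. Per the submitters' processing notes, the build was mm10 and the tools named were STAR 2.6.1d and Partek. RNA integrity numbers were above 9 and reads single-end with 75 cycles, per the labels' protocols. No source used here gives the annotation or strand setting. Antisense genes overlap Krt5, Krt6a, Krt6b, Krt7, Krt8, Krt10, Krt75, Krt76, Krt80 and Krt90 in GENCODE M21, and their reads may be included.

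Counts were rounded, filtered with filterByExpr (17305 genes), scaled by TMM and tested with edgeR 4.0.16's quasi-likelihood test (R 4.3.3), with p-values adjusted by Benjamini-Hochberg over all tested genes. CPM uses TMM-scaled library sizes, and intervals cover counting error only. Log2 fold changes are mutant minus control. Single values per library were compared by exact permutation. Exon lengths and shared 75-base stretches came from GENCODE M21, whose positions match all 37 keratins. Classes follow textbook sites of expression. Per-library values are given for the 15 keratins with the highest mean, each called one and the 5 with the smallest p. The scripts were tested on simulated data. Pairs within a group differed beyond counting noise (chi-square per degree of freedom 22.3 to 41.0). Alternatives were other scalings and filters, DESeq2 1.42.0, limma-voom (limma 3.58.1), limma on the normalized signal, a replicate block and each library left out.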

Additional observations from a re-analysis of the deposited data

How the results depend on the processing

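The summed keratin level kept its direction under every alternative run (-0.46 to -0.09 on the log2 scale), and its test could not pass 0.05 in any of them with this few libraries. Krt87 was called with RLE, upper-quartile and library-total scaling, without a filter, with DESeq2 and with limma on the normalized table. The count of keratins called higher was 0 with limma-voom, with a filter of 1 CPM in 3 libraries, which removed Krt87, and without any single library (0 to 0), and DESeq2 called 2 lower. Genes called higher and lower over the whole transcriptome numbered 114 and 208, against 411 and 109 with library totals alone (79.0% against 35.4% of calls higher), 360 and 493 with DESeq2, and 1 to 105 and 10 to 138 without 1 library. The fewest were called without control replicate 2. DESeq2 gave no adjusted p for Krt4 and Krt13.

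Both groups have a replicate 3 and a replicate 5, and the labels do not say whether equal numbers mark a pair. Deviations from the group means correlated at 0.245 for replicate 3 and -0.141 for replicate 5 over all tested genes. With a single library per group and number, these values cannot settle whether such libraries are paired. With the replicate block, 19 genes were higher and 71 lower, 0 keratins were called higher, and Krt14 turned to -0.14. The adjusted p with the block was 0.158 for Krt87, 0.0810 for Col17a1, 0.0571 for Ppl and 0.0769 for Arid1a, so none of these was called. Libraries whose number occurs in a single group do not inform this comparison, which rests on replicates 3 and 5. The lost calls and the turn of Krt14 may therefore reflect the fewer libraries. The log2 fold changes kept their direction, at 2.73 for Krt87, -1.10 for Col17a1, -1.59 for Ppl and -0.70 for Arid1a.

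Krt14 also turned to -0.013 with limma-voom and ranged from -0.21 to 0.24 without 1 library. Krt222 turned to 0.14 with library totals alone, whose construction shifts every gene up. Without single libraries Krt4 ranged from -5.49 to 1.02, Krt13 from -5.05 to 1.36, Krt6a from -0.19 to 0.83 and Krt10 from -0.079 to 0.33. The mucosal sum ranged from -3.96 to 1.27, positive without control replicate 5. For the other turns the cause was not tested. Beside the counts and sums above, 218 values for single keratins stayed on their side of the threshold, 8 weakened (all Krt87), 2 passed it (Krt17 and Krt80) and 9 turned. The median keratin SD ranged from 0.264 to 0.563 in the mutants and 0.258 to 0.493 in the controls without 1 library. Low counts limit most of the 14 untested keratins, while Krt23 and Krt78 had most of their counts in control replicate 5.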
